A study of Mus musculus with 24 samples.

Results

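The matrix genes examined here were 44 collagen chains, 10 laminin chains and 5 secreted matrix glycoproteins, Cthrc1, fibronectin (Fn1), periostin (Postn), Sparc and Sparcl1. They were chosen by gene symbol, with earlier results of these data known, and make up 59 of 19937 genes that had a probe set with a single symbol. Where a gene had several probe sets, which applied to 2 of the 59 (Col6a5 and Col6a6), the one with the highest mean over all arrays stood for it. The collagens comprised 11 fibrillar chains, 6 basement membrane chains of type IV, 9 fibril-associated chains, 6 beaded filament chains of type VI, 4 membrane-spanning chains, 3 short chain network chains, 2 multiplexins and 3 others.

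The study set the hypothalamus of a hypertensive mouse strain beside that of its normotensive partner strain, in young and adult animals. The 4 groups were adult BPH/2J mice (hypertensive, 26 weeks old), adult BPN/3J mice (normotensive, 26 weeks), young BPH/2J mice (6 weeks) and young BPN/3J mice (6 weeks), with n = 6 in each. All mice were males under standard housing, each array held the whole hypothalamus of a single mouse, and the tissue was taken when blood pressure was at its daily peak. The 2 strains are inbred lines that differ at many loci, so a strain difference is not tied to blood pressure by this design, and no other strain was measured.

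Collagens are secreted triple helical proteins. Fibrillar collagens give connective tissue its tensile strength, while type IV collagen and the laminins build the basement membranes that surround brain vessels and line the outer and ventricular borders of the brain. In the brain, fibrillar collagens are made mostly by fibroblasts of the meninges and vessel walls, basement membrane chains mostly by endothelial cells, pericytes and astrocytes, and Sparc and Sparcl1 largely by glia and endothelium. The proteins turn over slowly, and collagen transcripts are in general more abundant in growing than in adult tissue.

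Values are log2 intensities made with RMA by the authors, and every difference below is in log2 units and is the BPH/2J mean minus the BPN/3J mean, or the 26-week mean minus the 6-week mean. Array medians lay between 5.89 and 6.09, and the median standard error of a difference was 0.09 over all genes. A gene was called where limma's adjusted p, corrected over 19937 genes, was below 0.05. At 26 weeks, replicates 5 and 6 of both strains stood apart from replicates 1 to 4, a split known from earlier results of these data and not named in the labels, so values are also given for the 2 sets. In BPH/2J, 23.7% of all genes had replicates 5 and 6 above all of replicates 1 to 4 and 23.1% had them below, and in BPN/3J these shares were 11.7% and 17%. Marker genes of brain regions differed between the groups as well, and whether the dissections differed was not tested. Of 12 thalamus markers, 12 were called lower in young BPH/2J than in young BPN/3J mice, 100% beside 7.42% of all genes. In adult against young BPH/2J mice 11 were called higher, 91.7% beside 16.9% of all genes. The mean of the list was 7.26 to 8.95 in 6-week BPH/2J, against 9.0 to 9.34 in 6-week BPN/3J. Hypothalamic markers had a list mean of 8.0 ± 0.30 in 26-week BPH/2J and 7.49 ± 0.35 in 26-week BPN/3J, and of 8.45 ± 0.32 in 6-week BPH/2J and 7.85 ± 0.30 in 6-week BPN/3J (SD, n = 6). In such whole-tissue RNA, fewer cells of a type and less RNA per cell cannot be told apart.

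The upstream sequences of 3 genes on which the results below turn are shown first: Sparc, the gene that fell with age in both strains by the smallest adjusted p among the 59, and Col3a1 and Col1a2, fibrillar chains that are co-expressed in fibroblasts. Each run is the 250 bases before the annotated transcription start, read 5′ to 3′ on the gene's strand, from RefSeq on GRCm38.p6, and 42 of the 59 genes had such a window. They lie at chr11:55420081-55420330 on the minus strand (Sparc), chr1:45311288-45311537 on the plus strand (Col3a1) and chr6:4505368-4505617 on the plus strand (Col1a2). Capitals mark 3 promoter motifs where they occur on either strand. The TATA box was searched as TATAAA. For the second motif, the CCAAT box, the letters are those of its name. The GC box was searched as GGGCGG.
Sparc: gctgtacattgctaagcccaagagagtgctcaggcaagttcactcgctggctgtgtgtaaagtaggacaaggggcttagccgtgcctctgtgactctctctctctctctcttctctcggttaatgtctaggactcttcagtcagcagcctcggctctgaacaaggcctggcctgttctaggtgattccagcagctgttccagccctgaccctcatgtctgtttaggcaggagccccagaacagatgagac
Col3a1: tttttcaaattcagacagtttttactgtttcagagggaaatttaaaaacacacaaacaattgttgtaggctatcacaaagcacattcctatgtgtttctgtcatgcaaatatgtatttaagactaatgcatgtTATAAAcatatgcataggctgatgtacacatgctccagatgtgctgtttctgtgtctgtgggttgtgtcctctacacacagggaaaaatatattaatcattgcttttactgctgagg
Col1a2: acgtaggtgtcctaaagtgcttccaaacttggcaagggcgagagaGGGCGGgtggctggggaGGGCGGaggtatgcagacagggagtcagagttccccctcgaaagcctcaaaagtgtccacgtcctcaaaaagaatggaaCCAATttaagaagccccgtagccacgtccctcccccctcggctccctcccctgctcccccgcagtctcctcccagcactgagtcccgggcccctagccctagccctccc
The Sparc window held 0 matches, the Col3a1 window 1 TATA box, and the Col1a2 window 1 CCAAT box and 2 GC boxes. Over all 32851 windows of this length, 12.4% held a TATA box, 33.8% a CCAAT box and 32.7% a GC box. Among the 47 windows of the 42 matrix genes the shares were 12.8%, 29.8% and 51.1%. Such a match describes the letters only and is not evidence of a bound factor.

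Few matrix genes differed between the strains. In adult mice 1 of the 59 was higher and 1 lower in BPH/2J than in BPN/3J, which is 3.39% beside 2.67% of all genes (1.32% higher and 1.34% lower). In young mice 2 were higher and 0 lower, again 3.39%, beside 7.42% of all genes (2.99% higher and 4.42% lower). Of the 54 collagen and laminin chains 0 were called at either age by limma. An unadjusted p below 0.05 was reached by 3 of these chains at 26 weeks and 4 at 6 weeks, beside 12.5% and 18.1% of all genes. The median difference of the 59 was 0.00 at 26 weeks and 0.09 at 6 weeks, where it was 0.01 for all genes. The interaction of strain and age was called for 0 of the 59, beside 0.0301% of all genes. At an unadjusted p below 0.05 it had 3, beside 10.8% of all genes, and the smallest adjusted p was 0.212.

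Cthrc1, a secreted protein with a short collagen-like repeat known to limit collagen deposition in injured rat arteries and to act in Wnt planar polarity signalling in mice, separated the strains at both ages. Its log2 values had a lowest, median and highest of 8.70, 8.91 and 9.0 in 26-week BPH/2J, against 5.94, 6.40 and 6.56 in 26-week BPN/3J. In 6-week BPH/2J they were 8.41, 8.69 and 8.95, against 6.22, 6.30 and 6.65 in 6-week BPN/3J. Every BPH/2J array lay above every BPN/3J array at each age, as for 0.863% of all genes at 26 weeks and 2.66% at 6 weeks in that direction. Cthrc1 was higher in BPH/2J by 2.55 ± 0.10 at 26 weeks (SE, n = 6 per group, limma adjusted p = 3.39e-15), a 5.84-fold difference, and by 2.31 ± 0.10 at 6 weeks (adjusted p = 1.88e-14), a 4.95-fold difference. Age made little difference to it. The 26-week minus 6-week value was 0.20 ± 0.10 in BPH/2J (adjusted p = 0.189) and -0.04 ± 0.10 in BPN/3J (adjusted p = 0.827), and the interaction was 0.24 ± 0.15 (adjusted p = 0.598). The array sets gave the same picture, with strain differences of 2.56 over 26-week replicates 1 to 4 and 2.51 over replicates 5 and 6. Over 14 alternative settings the Cthrc1 call stood in 14 of 14 at either age, with values of 2.51 to 2.56 at 26 weeks and 2.30 to 2.51 at 6 weeks.

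Genes beside Cthrc1 on chromosome 15 were set next to it, 5 measured genes on each side in the RefSeq order. At 26 weeks 2 of the 10 neighbours were called, beside 2.67% of all genes, and at 6 weeks 1 of 10, beside 7.42%. Fzd6, a frizzled receptor of the Wnt planar polarity pathway and the next measured gene, was higher in BPH/2J by 0.64 ± 0.09 at 26 weeks (adjusted p = 6.35e-05), while its 6-week difference of 0.29 ± 0.09 did not pass (adjusted p = 0.0561). Baalc, the gene beyond it, was higher by 0.63 ± 0.08 at 26 weeks (adjusted p = 1.53e-05) and by 0.50 ± 0.08 at 6 weeks (adjusted p = 0.000239). The other 8 neighbours did not pass at either age.

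Sparc binds collagen and is needed for normal fibril assembly. In 6-week mice its log2 values had a lowest, median and highest of 12.32, 12.49 and 12.53 in BPH/2J, against 12.11, 12.18 and 12.24 in BPN/3J. The groups did not overlap, as for 2.66% of all genes in that direction, and Sparc was higher in 6-week BPH/2J by 0.29 ± 0.09 (adjusted p = 0.0363). Arrays centred on their medians gave 0.28 (adjusted p = 0.0639) and a thalamus marker covariate 0.16 (adjusted p = 0.990), and 9 of 24 fits without 1 array lost the call (highest adjusted p 0.0857). In 26-week mice the values were 11.71, 11.89 and 12.15 in BPH/2J, against 11.62, 11.74 and 12.11 in BPN/3J, and overlapped, with a difference of 0.11 ± 0.09 (adjusted p = 0.666).

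Postn, a fibroblast matrix protein that binds collagen and integrins, was lower in BPH/2J at 26 weeks. Its log2 values there had a lowest, median and highest of 4.76, 4.98 and 5.00, against 4.93, 5.60 and 6.19 in BPN/3J, where replicates 2 and 5 were highest (6.19 and 5.89) and replicates 1 and 6 lay within the BPH/2J range (4.93 and 4.95). The difference was -0.59 ± 0.15 (adjusted p = 0.0244). With only the groups compared it was not called (adjusted p = 0.206), nor when replicate 5 of BPH/2J or any of replicates 2, 4 and 5 of BPN/3J was left out (highest adjusted p 0.0664). The choroid plexus marker mean, which is described further on, was 8.22 in BPN/3J replicate 2 and 5.58 in replicate 5. With that mean as a covariate, an alternative added after the data were seen, the Postn difference was -0.51 (adjusted p = 0.0323). At 6 weeks the values were 4.70, 5.00 and 5.13 in BPH/2J, against 5.16, 5.21 and 5.45 in BPN/3J; these did not overlap, as for 2.78% of all genes in that direction, and the difference of -0.30 ± 0.15 was not called (adjusted p = 0.271).

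Fn1, the fibronectin that cells bind through integrins, had a strain difference of 0.07 ± 0.15 at 26 weeks (adjusted p = 0.930) and 0.38 ± 0.15 at 6 weeks (adjusted p = 0.141). Its group means were 7.52 ± 0.26 in 26-week BPH/2J and 7.46 ± 0.25 in 26-week BPN/3J, and 7.81 ± 0.39 in 6-week BPH/2J and 7.43 ± 0.20 in 6-week BPN/3J (SD, n = 6). Sparcl1, a Sparc relative made by astrocytes, had the smallest standard error of the 59 (0.04). Its means were 13.16 ± 0.05 in 26-week BPH/2J and 13.18 ± 0.03 in 26-week BPN/3J, and 13.17 ± 0.03 in 6-week BPH/2J and 13.15 ± 0.03 in 6-week BPN/3J, and no contrast was called.

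**Figure D1:**
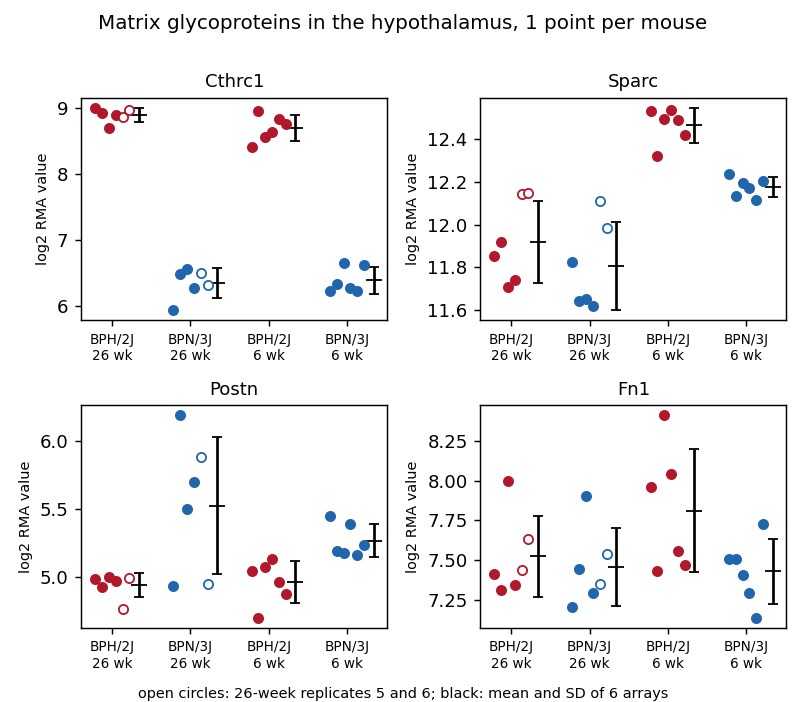
Log2 values (y axis) of Cthrc1, Sparc, Postn and Fn1 in the 4 groups (x axis), 1 point per mouse, open circles for 26-week replicates 5 and 6, with the mean and SD in black. Cthrc1 lies at 8.41 or above on every BPH/2J array and at 6.65 or below on every BPN/3J array, and Sparc is lower at 26 than at 6 weeks in both strains.

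**Figure D2:**
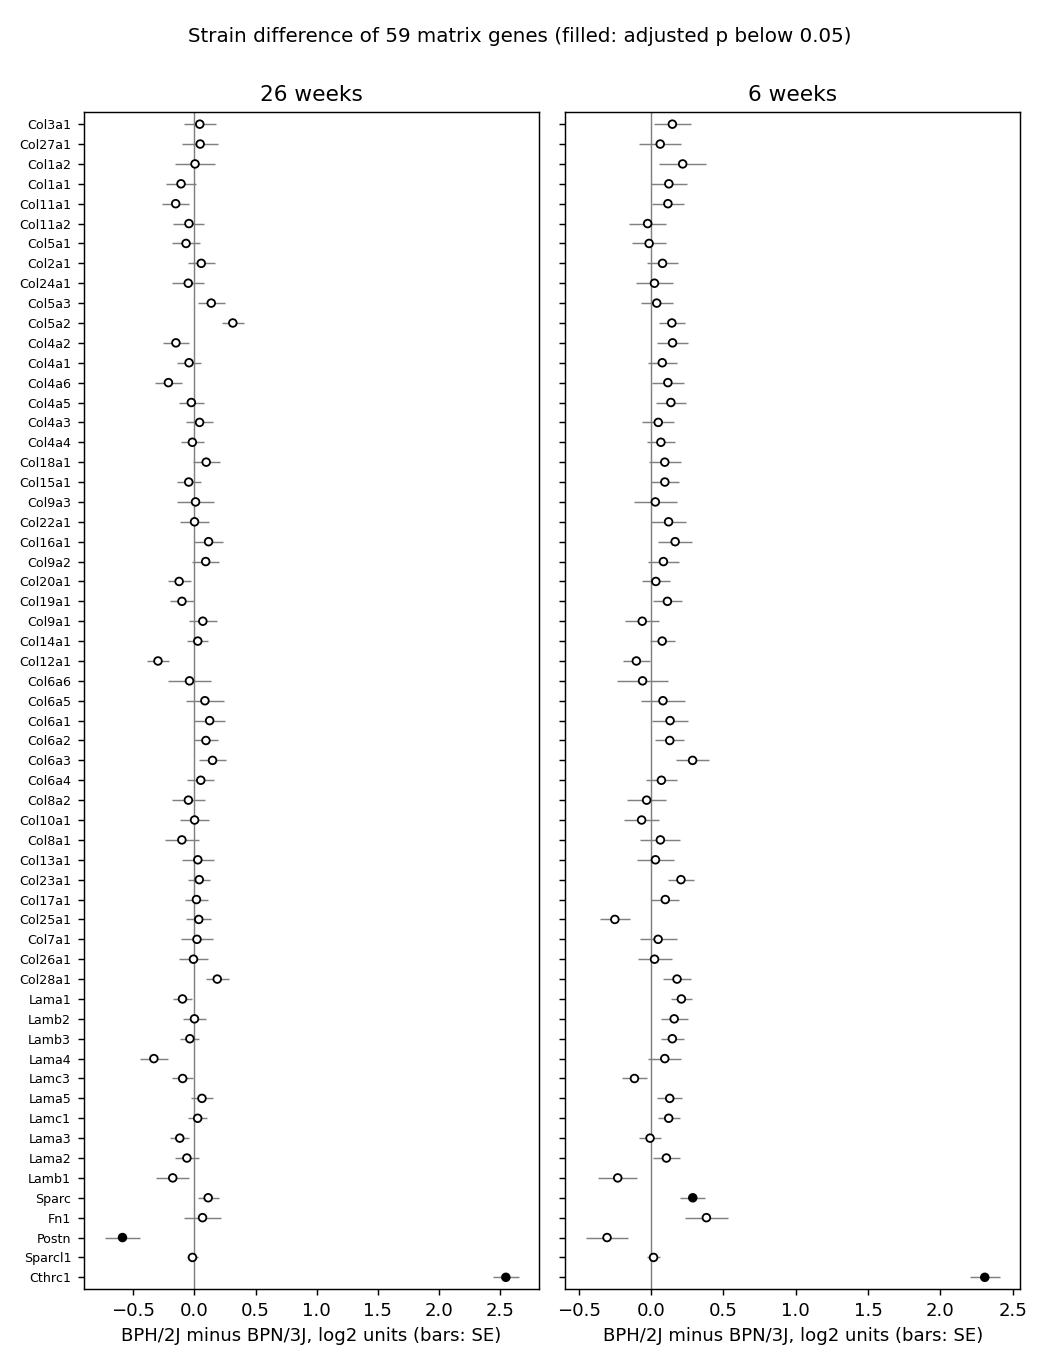
BPH/2J minus BPN/3J difference in log2 units with its SE (x axis) for each of the 59 genes (y axis), at 26 weeks on the left and 6 weeks on the right, with called genes filled. Cthrc1 stands at 2.55 and 2.31, apart from all others, which lie between -0.59 and 0.38.

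Age differences were called more often. In adult against young BPH/2J mice, most fibrillar and basement membrane collagens fell. Of the 59 genes 20 were called lower and 0 higher at 26 weeks in BPH/2J, 33.9% beside 16.9% of all genes (8.23% higher and 8.64% lower). In BPN/3J 4 were lower and 0 higher, 6.78% beside 12.3% of all genes (4.6% higher and 7.66% lower). At an unadjusted p below 0.05 there were 40 of 59 in BPH/2J and 28 of 59 in BPN/3J, beside 31.6% and 29.3% of all genes. Without regard to calls, 55 of 59 differences lay below 0 in BPH/2J (median -0.29) and 48 of 59 in BPN/3J (median -0.20), against 57.1% and 56% of all genes (median -0.03 in both). The 2 genes called in both strains were Sparc and Col3a1. Since the interaction was called for none of the 59, the larger count in BPH/2J does not show that the strains differ in it.

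These counts moved with the array set, the tissue markers and the replicate numbers. With 26-week replicates 1 to 4 only, 44 of the 59 were called in BPH/2J and 32 in BPN/3J, beside 39.3% and 33.6% of all genes. With replicates 5 and 6 only, which leaves 2 arrays in the adult group, 1 and 0 were called, beside 1.95% and 0.135% of all genes. With the thalamus marker mean as a covariate 0 were called in BPH/2J and 4 in BPN/3J, beside 0.0401% and 12.6%. A choroid plexus covariate, added after the data were seen, gave 18 and 0, beside 15.7% and 1.03%. Same-numbered 26-week arrays of the strains deviated together, and a replicate block at that age gave 41 and 31, beside 28% and 25.1%. The share of all genes called thus moved with these settings as well.

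Sparc fell in both strains. The 26-week log2 values in BPH/2J, at most 12.15, lay below the 6-week ones, at least 12.32, as for 2.58% of all genes in that direction. Sparc fell there by 0.55 ± 0.09 (adjusted p = 0.000231). In BPN/3J it fell by 0.37 ± 0.09 (adjusted p = 0.00945). The BPN/3J groups met without overlap at 12.11, as for 3.32% of all genes in that direction. Relative to 6 weeks, replicates 1 to 4 differed by -0.66 in BPH/2J and -0.49 in BPN/3J, and replicates 5 and 6 by -0.32 and -0.13. Sparc was the 1 gene called in BPH/2J from replicates 5 and 6 alone (adjusted p = 0.0313).

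Among fibrillar collagens 7 of 11 fell in BPH/2J and 3 of 11 in BPN/3J, with median differences of -0.38 and -0.35 over the 11. These calls were 63.6% and 27.3% of the class, beside 16.9% and 12.3% of all genes. Col1a1 and Col1a2 encode the chains of type I collagen, the main fibril of connective tissue. Col1a1 had a lowest, median and highest log2 value of 6.43, 6.67 and 6.97 in 26-week BPH/2J, against 6.79, 7.30 and 7.39 in 6-week BPH/2J, and fell by 0.55 ± 0.13 (adjusted p = 0.00444). Its values overlapped only through the low 6-week replicate 2. In BPN/3J they were 6.62, 6.65 and 7.37 at 26 weeks, against 7.0, 7.06 and 7.33 at 6 weeks, with a difference of -0.31 ± 0.13 (adjusted p = 0.0966).

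Col1a2 had values of 6.87, 7.14 and 7.61 in 26-week BPH/2J, against 7.34, 7.89 and 8.03 in 6-week BPH/2J, and fell by 0.61 ± 0.16 (adjusted p = 0.0129). In BPN/3J it had 6.79, 7.08 and 7.97 at 26 weeks, against 7.31, 7.53 and 8.12 at 6 weeks, a difference of -0.40 ± 0.16 (adjusted p = 0.110). Col3a1, the chain of type III collagen found with type I in vessel walls and meninges, fell in both strains. Its values were 5.71, 5.88 and 6.30 in 26-week BPH/2J, against 6.23, 6.55 and 6.63 in 6-week BPH/2J (-0.56 ± 0.13, adjusted p = 0.00476). In BPN/3J they were 5.67, 5.77 and 6.57 at 26 weeks, against 6.15, 6.32 and 6.69 at 6 weeks (-0.46 ± 0.13, adjusted p = 0.0254).

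In 26-week BPN/3J replicate 3 was high for all 3 of these chains, at 7.37 for Col1a1, 7.97 for Col1a2 and 6.57 for Col3a1. That array also had the highest mean of the 18 meningeal and fibroblast markers in its group (7.33, range of the group 5.83 to 7.33). None of the 18 was called in any contrast, and their means were 6.07 to 7.17 in 26-week BPH/2J and 5.94 to 7.02 in 6-week BPH/2J. With that mean as a covariate, an alternative added after the data were seen, Col1a1 fell in BPN/3J by 0.39 (adjusted p = 0.0270) and Col1a2 by 0.53 (adjusted p = 0.00453), while Col5a3, described next, was no longer called there (-0.33, adjusted p = 0.0631).

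These 3 chains were low in both array sets of both strains, as were others of the 59, among them Sparc, Col23a1 and Col6a2. Replicates 5 and 6 differed from 6 weeks by -0.36, -0.51 and -0.28 in BPH/2J for Col1a1, Col1a2 and Col3a1, and by -0.38, -0.66 and -0.53 in BPN/3J. Replicates 1 to 4 differed by -0.64, -0.66 and -0.70 in BPH/2J and by -0.28, -0.26 and -0.42 in BPN/3J.

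The minor fibrillar chains Col5a2 and Col5a3, which regulate the width of type I fibrils, were called in BPN/3J. Col5a2 had 4.73, 4.97 and 5.13 in 26-week BPN/3J, against 5.20, 5.32 and 5.51 in 6-week BPN/3J, without overlap, which 3.32% of all genes showed in that direction, and fell by 0.36 ± 0.09 (adjusted p = 0.0138). One 26-week array was at the level of unnamed probe sets, and raising it to that level gave -0.33. Col5a2 was also higher in 26-week BPH/2J than in 26-week BPN/3J by 0.31 ± 0.09, which did not pass (adjusted p = 0.0640) but did with a replicate block at 26 weeks (adjusted p = 0.00542). Col5a3 fell in BPN/3J by 0.35 ± 0.11 (adjusted p = 0.0396), with means of 6.21 ± 0.20 at 26 weeks and 6.56 ± 0.06 at 6 weeks.

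Col11a1, Col11a2, Col2a1 and Col27a1, best known from cartilage, fell in BPH/2J. Col11a1 had means of 5.99 ± 0.25 at 26 weeks and 6.48 ± 0.09 at 6 weeks (-0.49 ± 0.11, adjusted p = 0.00403). For Col11a2 the means were 6.58 ± 0.33 and 6.96 ± 0.15, for Col2a1 6.43 ± 0.29 and 6.77 ± 0.19, and for Col27a1 6.65 ± 0.42 and 7.08 ± 0.14 at 26 and 6 weeks. Their adjusted p-values were 0.0377, 0.0335 and 0.0431. The last 3 differed from 6 weeks by 0.02 to 0.09 in replicates 5 and 6 and by -0.51 to -0.69 in replicates 1 to 4.

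**Figure D3:**
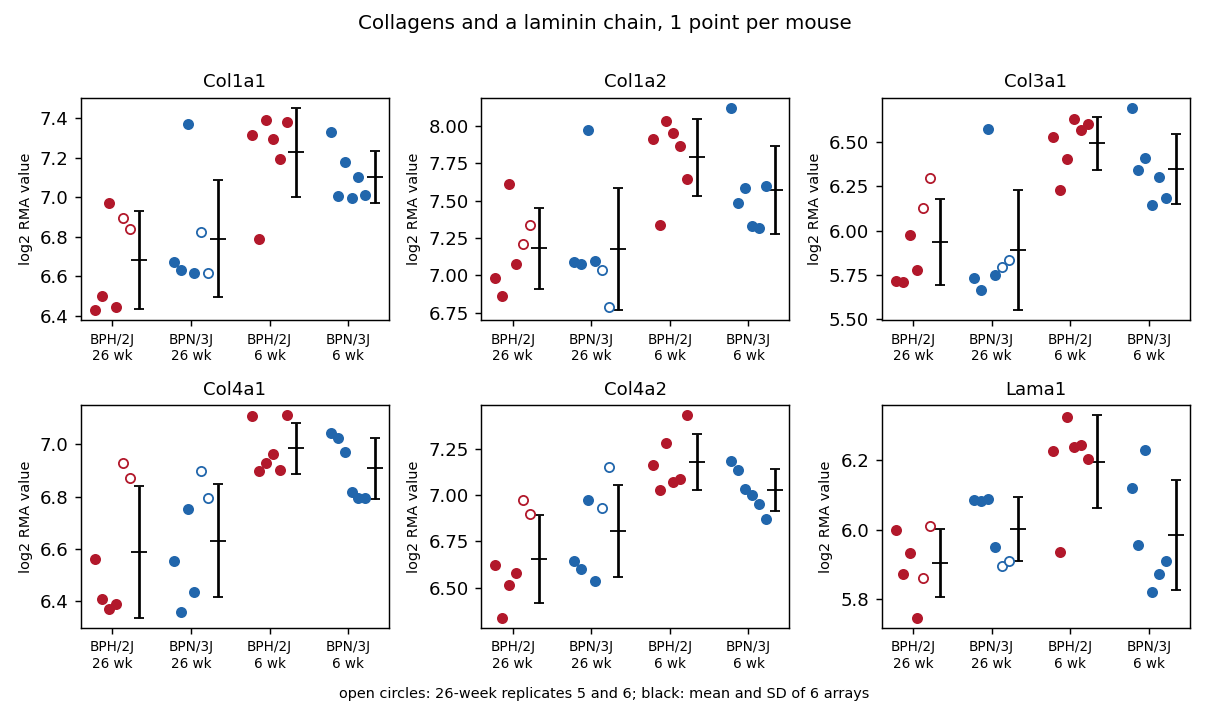
Log2 values (y axis) of 5 collagen chains and Lama1 in the 4 groups (x axis), 1 point per mouse, open circles for 26-week replicates 5 and 6, with the mean and SD in black. Col4a1 shows the 26-week BPH/2J replicates 5 and 6 (6.93 and 6.87) above replicates 1 to 4 (6.37 to 6.56), and BPN/3J replicate 3 is high for Col1a1, Col1a2 and Col3a1.

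The 6 type IV chains assemble as trimers in basement membranes, with Col4a1 and Col4a2 in nearly all of them. In BPH/2J 4 of 6 fell with age (median of the 6, -0.36), and in BPN/3J 0 of 6 were called (median -0.20, smallest adjusted p 0.0711, 3 at an unadjusted p below 0.05). The calls were 66.7% and 0% of the class, beside 16.9% and 12.3% of all genes. Col4a2 had 6.34, 6.60 and 6.97 in 26-week BPH/2J, against 7.03, 7.13 and 7.43 in 6-week BPH/2J, without overlap, which 2.58% of all genes showed in that direction. It fell by 0.52 ± 0.11 (adjusted p = 0.00209). Col4a1 had 6.37, 6.49 and 6.93 in 26-week BPH/2J, against 6.90, 6.95 and 7.11 in 6-week BPH/2J, and fell by 0.40 ± 0.10 (adjusted p = 0.00901).

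In BPN/3J Col4a2 had means of 6.81 ± 0.25 at 26 weeks and 7.03 ± 0.11 at 6 weeks (adjusted p = 0.170), and Col4a1 6.63 ± 0.22 and 6.91 ± 0.12 (adjusted p = 0.0711). Col4a5 and Col4a6, chains of epithelial and smooth muscle basement membranes, fell in BPH/2J by 0.33 ± 0.10 (adjusted p = 0.0271) and 0.40 ± 0.11 (adjusted p = 0.0150). Type IV genes lie in head-to-head pairs. In 2 of the 8 neighbouring pairs among the 59 both genes were called in BPH/2J, Col4a1 with Col4a2 and Col4a6 with Col4a5. Neither gene of the type IV pair Col4a4 and Col4a3 was called (adjusted p = 0.117 and 0.0763). Of the 59 genes 33.9% were called there, and whether neighbours were called together more often than other genes was not tested. In replicates 5 and 6 the 4 called chains differed from 6 weeks in BPH/2J by -0.24 (Col4a2), -0.15 (Col4a6), -0.09 (Col4a1) and -0.03 (Col4a5), and in replicates 1 to 4 by -0.66, -0.53, -0.55 and -0.48. Means of 16 endothelial markers were 7.84 to 8.08 in 26-week BPH/2J and 7.67 to 7.91 in 6-week BPH/2J, with 3 higher and 1 lower at 26 weeks, 25% beside 16.9% of all genes. Of 13 mural cell markers 0 were called there.

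Fibril-associated collagens, which sit on the surface of fibrils, fell in 5 of 9 cases in BPH/2J (median of the 9, -0.30) and in 0 of 9 in BPN/3J (smallest adjusted p 0.0563, 4 at an unadjusted p below 0.05). The calls were 55.6% and 0% of the class, beside 16.9% and 12.3% of all genes. Col9a3 had the widest split of the 5 between array sets. Its BPH/2J values at 26 weeks were 7.28 and 7.56 in replicates 5 and 6 and 6.32 to 6.75 in replicates 1 to 4, against 7.19 to 7.60 at 6 weeks, and over all arrays it fell by 0.45 ± 0.15 (adjusted p = 0.0396). Col19a1 fell by 0.32 ± 0.10 (adjusted p = 0.0246), with -0.35 in replicates 1 to 4 and -0.28 in replicates 5 and 6. Col16a1, Col20a1 and Col22a1 fell by 0.35, 0.29 and 0.35 (adjusted p = 0.0464, 0.0356 and 0.0450), and replicates 5 and 6 gave -0.04, -0.03 and 0.02. The BPH/2J means at 26 and 6 weeks were 6.61 ± 0.25 and 6.96 ± 0.15 for Col16a1, 5.44 ± 0.12 and 5.76 ± 0.13 for Col19a1, 6.03 ± 0.28 and 6.33 ± 0.11 for Col20a1, and 6.01 ± 0.30 and 6.36 ± 0.14 for Col22a1.

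Among type VI chains, which form beaded filaments around cells, 1 of 6 fell in BPH/2J and 0 of 6 in BPN/3J, with medians of -0.32 and -0.30. The calls were 16.7% and 0% of the class, beside 16.9% and 12.3% of all genes. Col6a2 fell in BPH/2J by 0.31 ± 0.10 (adjusted p = 0.0308), with means of 6.30 ± 0.17 at 26 weeks and 6.61 ± 0.16 at 6 weeks. Of the 4 membrane-spanning chains 1 fell in BPH/2J, 25% beside 16.9% of all genes. This was Col23a1, which fell by 0.34 ± 0.09 (adjusted p = 0.0110), with means of 6.60 ± 0.16 at 26 weeks and 6.95 ± 0.23 at 6 weeks. The 2 multiplexins, the 3 short chain network collagens and the other 3 chains were not called in any contrast. Col10a1, the hypertrophic cartilage collagen, lay at or below the median of unnamed probe sets on 16 of 24 arrays.

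Laminins are trimers of an alpha, a beta and a gamma chain. In BPH/2J 1 of 10 fell (median of the 10, -0.15) and in BPN/3J 0 of 10 were called (median 0.01). The calls were 10% and 0% of the class, beside 16.9% and 12.3% of all genes. Lama1, an alpha chain of the outer brain surface and vessels, fell in BPH/2J. It had 5.75, 5.90 and 6.01 at 26 weeks, against 5.94, 6.23 and 6.32 at 6 weeks (-0.29 ± 0.07, adjusted p = 0.00923), and both array sets were low (-0.31 and -0.26). In BPN/3J the difference was 0.02 ± 0.07, and the interaction of -0.31 ± 0.11 did not pass (adjusted p = 0.212).

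Lama2, Lama4, Lamb1, Lamb2 and Lamc1 were not called in any contrast. Lama2, the alpha chain of the astrocyte and mural side of vessels, had 26-week minus 6-week differences of 0.10 ± 0.10 in BPH/2J and 0.27 ± 0.10 in BPN/3J (adjusted p = 0.0607). Its means were 6.84 ± 0.19 in 26-week BPH/2J and 6.90 ± 0.25 in 26-week BPN/3J, and 6.74 ± 0.10 in 6-week BPH/2J and 6.63 ± 0.08 in 6-week BPN/3J. Lama4, the endothelial alpha chain, had a 26-week strain difference of -0.33 ± 0.11 (adjusted p = 0.146), with means of 5.37 ± 0.26 in BPH/2J and 5.70 ± 0.21 in BPN/3J. At 6 weeks the means were 5.63 ± 0.15 in BPH/2J and 5.53 ± 0.19 in BPN/3J.

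Lamb1, a widely used beta chain, had means of 6.87 ± 0.31 in 26-week BPH/2J and 7.05 ± 0.32 in 26-week BPN/3J, and 6.64 ± 0.12 in 6-week BPH/2J and 6.87 ± 0.18 in 6-week BPN/3J. Lamb2, the beta chain of mature vessels, had 7.77 ± 0.15 in 26-week BPH/2J and 7.77 ± 0.17 in 26-week BPN/3J, and 8.03 ± 0.24 in 6-week BPH/2J and 7.88 ± 0.06 in 6-week BPN/3J (age in BPH/2J, adjusted p = 0.0519). Lamc1, the usual gamma chain, had 7.55 ± 0.09 in 26-week BPH/2J and 7.53 ± 0.16 in 26-week BPN/3J, and 7.65 ± 0.13 in 6-week BPH/2J and 7.53 ± 0.11 in 6-week BPN/3J.

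Some genes went the other way between the array sets, with replicates 5 and 6 below replicates 1 to 4 in 6 of 59 in BPH/2J and 13 of 59 in BPN/3J. Among them were Lamb1 and Col8a1, a short chain network collagen picked out after its values were seen. Lama2, Lama4, Postn and Sparcl1 did so in both strains by smaller amounts. In replicates 5 and 6 Lamb1 was lower than in replicates 1 to 4 by 0.44 in BPH/2J and 0.39 in BPN/3J, and Col8a1 by 0.21 and 0.57. The mean of 12 choroid plexus markers had its highest values in replicates 1 to 4, at 7.82 in 26-week BPH/2J replicate 3 and 8.22 in 26-week BPN/3J replicate 2. Replicates 5 and 6 had 5.63 to 5.88 in BPH/2J and 5.58 to 5.65 in BPN/3J. BPH/2J replicates 1 and 2, at 5.75 and 5.79, lay within the range of replicates 5 and 6, so this mean did not separate the sets there. In BPN/3J replicates 1 to 4 had 6.14 to 8.22. At 6 weeks the mean was 5.58 to 6.53 in BPH/2J and 5.63 to 5.99 in BPN/3J. The part of these cells in the differences of Lamb1 and Col8a1 between the array sets was not tested.

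**Figure D4:**
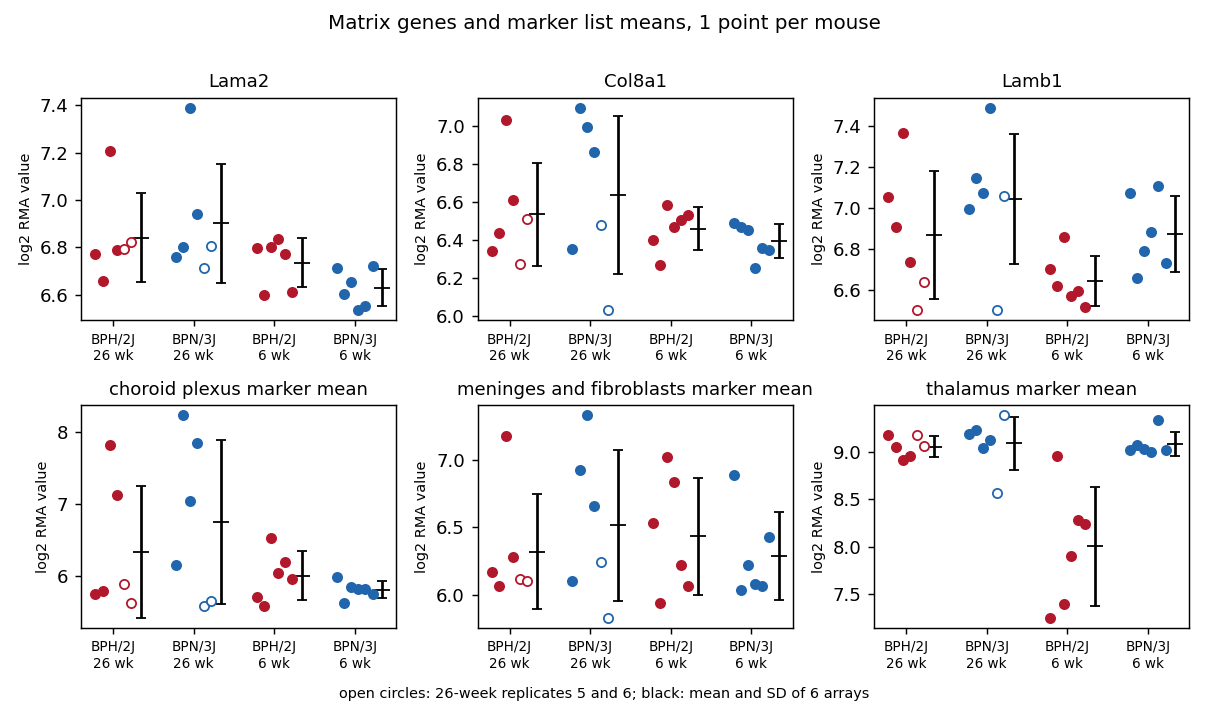
Log2 values (y axis) of Lama2, Col8a1 and Lamb1 and the means of the choroid plexus, meningeal and thalamus marker lists in the 4 groups (x axis), 1 point per mouse, open circles for 26-week replicates 5 and 6, with the mean and SD in black. The choroid plexus mean is spread from 5.63 to 7.82 in 26-week BPH/2J and from 5.58 to 8.22 in 26-week BPN/3J, and the thalamus mean is spread most in 6-week BPH/2J (7.26 to 8.95).

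The 2 sets of adult arrays differed in many matrix genes. In 26-week BPH/2J 40 of 59 genes (67.8%) had replicates 5 and 6 above all of replicates 1 to 4, and 1 had them below, beside 23.7% and 23.1% of all genes. In BPN/3J 17 of 59 (28.8%) lay above and 3 below, beside 11.7% and 17%. The median difference of replicates 5 and 6 from replicates 1 to 4 was 0.37 in BPH/2J and 0.19 in BPN/3J, against 0.02 and -0.02 over all genes. Col6a6, a type VI chain, had the widest one in either strain, 0.94 in BPH/2J and 0.59 in BPN/3J. Against 6 weeks, replicates 1 to 4 lay below 0 in 53 of 59 genes in BPH/2J (median -0.42) and in 50 of 59 in BPN/3J (median -0.28). Replicates 5 and 6 lay below 0 in 27 of 59 in BPH/2J (median 0.01) and in 40 of 59 in BPN/3J (median -0.06). The counts against 6 weeks by array set were not made over all genes.

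The strain difference at 26 weeks turned with the set. Over replicates 1 to 4, 45 of 59 genes had a BPH/2J mean below the BPN/3J mean (median -0.07), and over replicates 5 and 6, 47 of 59 had it above (median 0.13). Neither count was made over all genes, so whether the turn is particular to matrix genes was not tested, and the second set has 2 arrays per strain. Cthrc1 was 2.56 and 2.51 higher in BPH/2J in these sets, and Postn was lower in both, by -0.61 and -0.54.

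**Figure D5:**
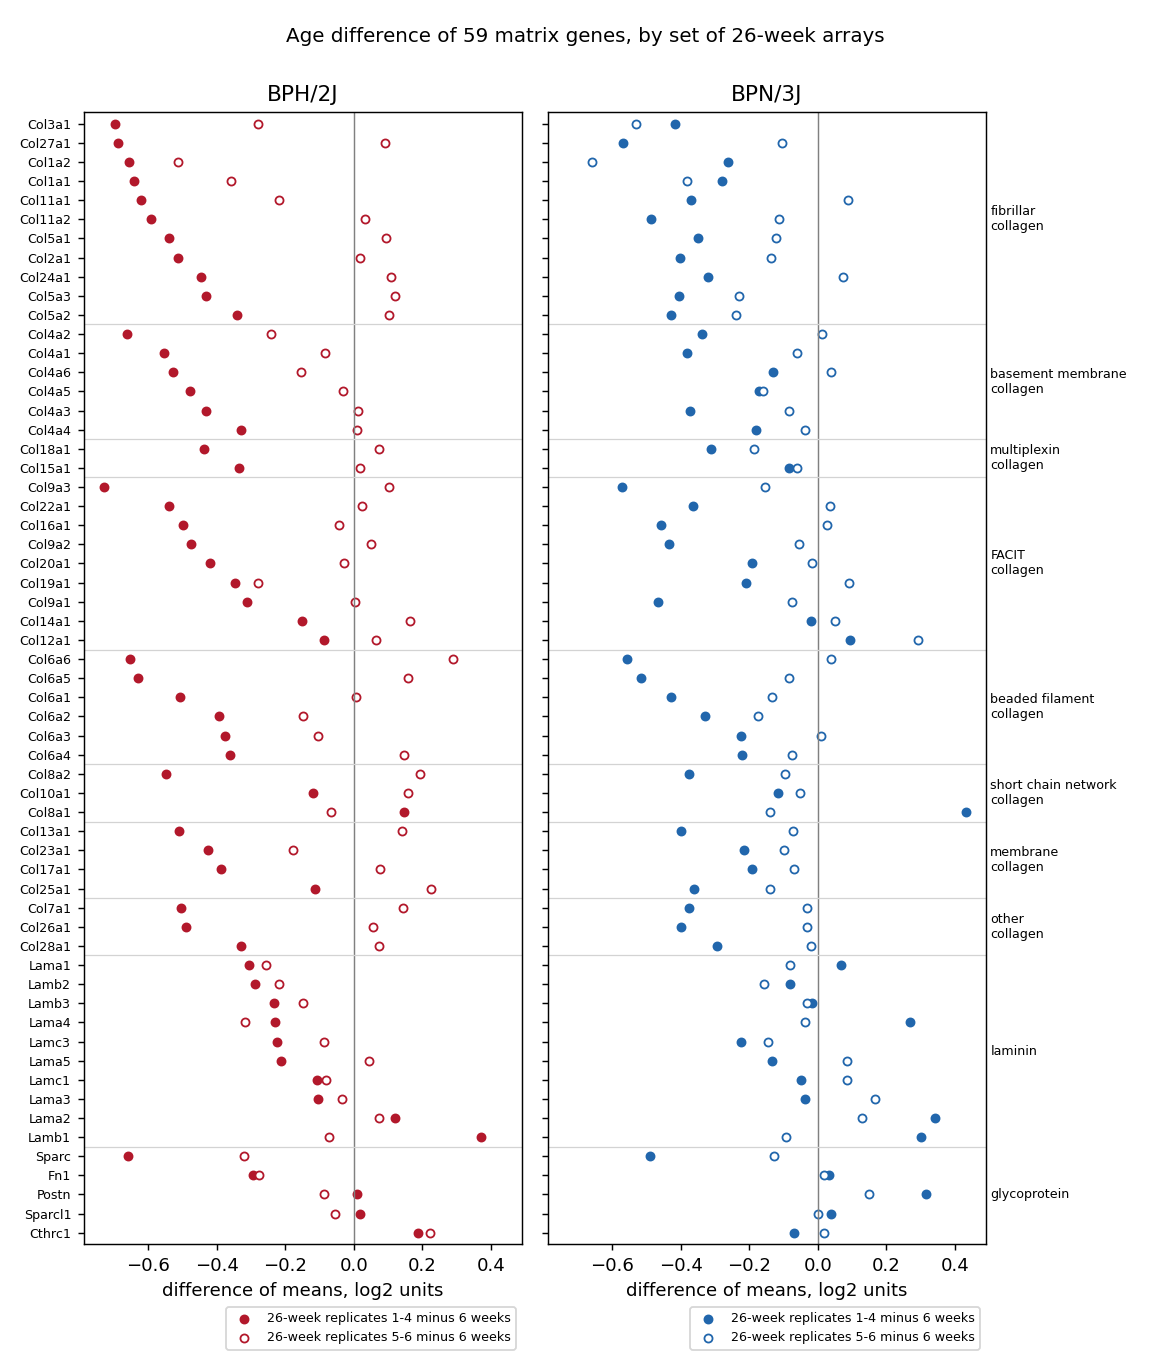
Difference of the 26-week mean from the 6-week mean in log2 units (x axis) for each of the 59 genes, grouped by class (y axis), in BPH/2J on the left and BPN/3J on the right, with filled points for 26-week replicates 1 to 4 and open points for replicates 5 and 6. Filled points lie below 0 for 53 genes in BPH/2J and 50 in BPN/3J, and open points for 27 and 40. Col1a1, Col1a2 and Col3a1 are below 0 in all 4 cases, as are others, among them Sparc, Col23a1 and Col6a2.

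Genes that process, bind or cut the matrix were counted from 6 fixed lists. Of 25 collagen processing genes 2 were higher and 11 lower at 26 weeks in BPH/2J, 52% beside 16.9% of all genes, and 0 and 3 in BPN/3J, 12% beside 12.3%. Plod3, a lysyl hydroxylase, fell by 0.41 ± 0.07 in BPH/2J (adjusted p = 0.000291) and by 0.41 ± 0.07 in BPN/3J (adjusted p = 0.00113). P4hb, a subunit of prolyl hydroxylase, fell by 0.34 ± 0.07 and 0.35 ± 0.07. Loxl1, a crosslinking oxidase, fell by 0.39 ± 0.08 in BPH/2J, and Plod1, another lysyl hydroxylase, by 0.48 ± 0.09 in BPN/3J. Between the strains, adult BPH/2J mice had 0 of the 25 genes higher and 1 lower, 4% beside 2.67% of all genes. Young BPH/2J mice had 1 higher and 3 lower, 16% beside 7.42%. P4ha3, a prolyl hydroxylase subunit, was lower in BPH/2J by -0.63 ± 0.08 at 26 weeks (adjusted p = 9.50e-06) and by -0.41 ± 0.08 at 6 weeks (adjusted p = 0.00171). At 6 weeks Pcolce2, an enhancer of procollagen cleavage, was lower by -0.62 ± 0.11 and P3h2, a prolyl 3-hydroxylase, higher by 0.45 ± 0.08.

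Of 15 further basement membrane proteins 2 fell in BPH/2J and 1 in BPN/3J with age, 13.3% and 6.67%, beside 16.9% and 12.3% of all genes. The 2 were Agrn, the proteoglycan agrin (-0.52 ± 0.13), and Npnt, an integrin ligand (-0.44 ± 0.11). Smoc1, a Sparc relative, was lower in BPH/2J at 26 weeks (-0.32 ± 0.08) and at 6 weeks (-0.44 ± 0.08), and fell with age in BPN/3J by 0.26 ± 0.08. Among 27 matrix receptors 1 was higher and 6 lower with age in BPH/2J and 1 and 5 in BPN/3J, 25.9% and 22.2% beside 16.9% and 12.3% of all genes. Dag1, the dystroglycan that anchors laminin, fell by 0.47 ± 0.11 in BPH/2J and 0.41 ± 0.11 in BPN/3J. Itgb1, the beta chain of most matrix integrins, and Itga9 fell in BPH/2J by 0.30 ± 0.07 and 0.37 ± 0.09, and Ddr1, a collagen-binding kinase, and the syndecan Sdc3 in BPN/3J by 0.37 ± 0.07 and 0.27 ± 0.07. Between the strains 0 receptors were called in adult mice by limma. In young mice 3 were higher in BPH/2J, among them Itga1 (0.38 ± 0.09) and Sdc4 (0.34 ± 0.08), and 1 was lower, Itga3 (-0.26 ± 0.07). These calls were 14.8% of the receptors, beside 7.42% of all genes.

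Of 22 matrix proteases and inhibitors 0 and 4 were higher and lower with age in BPH/2J and 1 and 3 in BPN/3J, 18.2% in each strain beside 16.9% and 12.3% of all genes, and 0 were called between the strains at either age. Mmp17 (-0.61 ± 0.11), Adamts5 (-0.32 ± 0.10) and Mmp12 (-0.25 ± 0.08) fell in BPH/2J, and in BPN/3J Timp3 (-0.35 ± 0.08) and Mmp24 (-0.28 ± 0.08) fell and Mmp16 rose (0.29 ± 0.08). Of 27 other glycoproteins and proteoglycans 1 was higher and 5 lower with age in BPH/2J and 0 and 3 in BPN/3J. These were 22.2% and 11.1%, beside 16.9% and 12.3% of all genes. Bcan, the brain proteoglycan brevican, fell by 0.48 ± 0.11 in BPH/2J and 0.44 ± 0.11 in BPN/3J, and Thbs3, a thrombospondin, by 0.54 ± 0.09 in BPH/2J. Eln, the elastin gene, and the proteoglycan Ncan fell in BPN/3J by 0.36 ± 0.09 and 0.25 ± 0.07. Between the strains 0 of the 27 were called in adult mice. In young BPH/2J mice 2 were higher, Thbs3 (0.44 ± 0.09) and Fbn2 (0.24 ± 0.07), and 1 lower, Spock3 (-0.30 ± 0.07), 11.1% beside 7.42% of all genes. Spock3 rose with age in BPH/2J (0.31 ± 0.07).

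Of 22 Wnt planar polarity genes, listed because of Cthrc1, 1 was higher and 0 lower in adult BPH/2J mice, 4.55% beside 2.67% of all genes, and the 1 was its neighbour Fzd6. At 6 weeks 0 were higher and 1 lower, Prickle1 (-0.25 ± 0.08), 4.55% beside 7.42% of all genes. With age 1 was higher and 7 lower in BPH/2J, among them Celsr3 (-0.51 ± 0.11), Vangl2 (-0.38 ± 0.08) and Dvl2 (-0.30 ± 0.07), and 0 and 2 in BPN/3J, Dvl2 (-0.25 ± 0.07) and Prickle1 (-0.27 ± 0.08). These were 36.4% and 9.09% of the list, beside 16.9% and 12.3% of all genes. The interaction was called for 0 genes of each of the 6 lists by limma. Of 12 thalamus markers 11 were called higher with age in BPH/2J and 0 were called in BPN/3J by limma, 91.7% and 0% beside 16.9% and 12.3% of all genes. The part of these markers and of replicates 5 and 6 in the counts of these lists was not tested.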

How the data were processed

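Hypothalamic RNA of 24 mice was measured on Affymetrix Mouse Gene 1.0 ST chips. The authors deposited RMA log2 values of 34760 probe sets; their processing notes name RMA and limma without versions. RMA equalises array distributions, so a shift shared by all genes is not seen. The lowest value was 1.54, the highest 14.3 and 0 were missing. The number of arrays limits the precision. The platform annotation gave 21640 probe sets 1 symbol, 1321 several and 11799 none here; only the first were used. Titles gave the groups. The series text writes another suffix for BPN in a single place, and BPN/3J was kept.

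A mean per group was fitted with limma 3.58.1 in R 4.3.3 to all 24 arrays, giving 5 contrasts with Benjamini-Hochberg adjustment over 19937 genes and a threshold of 0.05. The code was tested on simulated data. Genes named are all called members and 15 fixed ones, plus up to 3 called genes per list. Members and lists were chosen with earlier results of these data known. Mice are separate animals, and no pair of arrays in a group was a duplicate (mean absolute difference at least 0.122). Same-numbered 26-week arrays of the 2 strains correlated in their deviations from group means (0.13 to 0.444 in 6 of 6 pairs). This met the rule set for pairing by number, but only 3 of 6 BPH/2J arrays correlated best with the BPN/3J array of their number. The split of replicates 5 and 6 was shared by both strains, so pairing cannot be told apart from it, and no label pairs the arrays. The main fit used no pairing. At 6 weeks the range was -0.231 to 0.0532, and across ages 0.0125 to 0.413 in BPH/2J and -0.104 to 0.0476 in BPN/3J. Alternatives covered filters, scaling, moderation, samples, marker covariates and blocks.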

Additional observations from a re-analysis of the deposited data

Results flagged for a closer look

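Dixon's ratio, the gap of the highest or lowest array to its nearest neighbour over the range of its group, was above 0.625 in 16 of 124 groups of 6 arrays, taken over 31 named genes; chance gives about 1 group in 20, and genes of a kind share arrays.

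In 26-week BPN/3J replicate 3 stood apart and high for Col1a1 (ratio 0.725), Col1a2 (0.742), Col3a1 (0.816), Lama2 (0.664) and Lamb2 (0.771). It had the highest meningeal (7.33), mural (6.99) and endothelial (8.14) list means of its group. Replicate 3 of 26-week BPH/2J was high for Lama2 (0.696) and had that group's highest meningeal mean (7.17). In 6-week BPN/3J replicate 1, with the highest meningeal mean there (6.88), was high for Col1a2 (0.652) and Col4a5 (0.704). Replicate 2 of 6-week BPH/2J was low for Col1a1 (0.674), Col6a2 (0.775) and Lama1 (0.684), and had the lowest meningeal mean (5.94) and the highest thalamus mean (8.95) of that group. The part of these tissues in the values was not tested.

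Replicate 6 was high for Col11a2 (0.713) and Col9a3 (0.683) in 6-week BPH/2J, and for Col23a1 (0.643) and Col6a2 (0.653) in 26-week BPH/2J. Postn was low in 26-week BPH/2J replicate 5 (0.666).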

How the results depend on the processing

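Counts of called genes among the 59 are given here for BPH/2J against BPN/3J in adult and in young mice (2 and 2) and for adult against young mice in BPH/2J and in BPN/3J (20 and 4), for age with the share of all genes called in brackets. In adult mice the strain count was 1 with only the groups compared. In young mice it was 1 with arrays centred on their medians or a thalamus covariate and 4 with only the groups compared. Age in BPH/2J gave 45 (37.5%) with a term for 26-week replicates 5 and 6, where the difference refers to replicates 1 to 4, 44 (39.3%) with replicates 1 to 4 only, 1 (1.95%) with replicates 5 and 6 only, where arrays are fewer, and 0 (0.0401%) with the thalamus covariate. Age in BPN/3J gave 9 (17.5%) with a filter on dim probe sets, 10 (11.9%) with only the groups compared, 38 (36.7%), 32 (33.6%) and 0 (0.135%) with the same set choices and 0 (1.03%) with a choroid plexus covariate. The interaction stayed at 0 in every setting. Other settings kept each count within 1.5 times.

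The replicate block gave 17 (15.4%) for age in BPN/3J, 30 (19.5%) for age in BPH/2J, 3 and 2 for strain at 26 and 6 weeks and 0 for the interaction. A replicate block at 26 weeks only gave 41 (28%) for age in BPH/2J, 31 (25.1%) for age in BPN/3J and 3 for strain at each age. That block and the choroid plexus and meningeal covariates were chosen after seeing the data. Neither block lost a call among the named genes.

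Of the 20 genes called lower with age in BPH/2J, 5 had a difference above 0 with 26-week replicates 5 and 6 only: Col11a2 0.033, Col22a1 0.023, Col27a1 0.089, Col2a1 0.017 and Col9a3 0.10. The cause was not tested.

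Leaving out each array in turn gave 1 to 3 calls for strain at 26 weeks, 1 to 3 at 6 weeks, 0 for the interaction, 10 to 40 for age in BPH/2J and 2 to 18 for age in BPN/3J. For age in BPH/2J the count was 10 to 13 when any of replicates 1 to 4 of 26-week BPH/2J or 1, 3, 5 and 6 of 6-week BPH/2J was left out, and 40 without 26-week BPH/2J replicate 6. For age in BPN/3J it was 18, 13 and 8 without 26-week BPN/3J replicate 5, 6 and 3, 11 and 12 without 26-week BPH/2J replicate 5 and 6, and 2 when any of replicates 1, 2 and 4 of 26-week BPN/3J or 1 and 3 of 6-week BPN/3J was left out. In BPH/2J 10 of the 20 calls stood in all 24 of these fits (Sparc, Col1a1, Col1a2, Col3a1, Col4a1, Col4a2, Col4a6, Col11a1, Col23a1 and Lama1), and the other 10 were lost in 4 to 15 of them. In BPN/3J Sparc and Col5a2 stood in all 24. For strain in adult mice the count was 1 when replicate 5 of BPH/2J or replicate 2 or 4 of BPN/3J was left out, and in young mice when any of replicates 1, 3, 4 and 5 of BPH/2J or 2, 4, 5 and 6 of BPN/3J was. Per-probe background is not in the table used, which limits dim genes such as Col10a1 and Postn.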
